A study of Mus musculus with 6 samples.

Results

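The Lce3 genes (Lce3a to Lce3f) and Lce6a encode late cornified envelope proteins and lie in the epidermal differentiation complex, a gene cluster on mouse chromosome 3. The 7 genes were taken as named families, with no threshold on their values but with earlier results of these data known, and each was measured by 1 probe with 1 spot per array, out of 21368 named genes on the array. Epidermis of mouse embryos at day 16 (E16, strain 129SvEx:C57BL/6 per the labels) was compared on 6 arrays in 2 colours. Each array set the RNA of a knockout against that of wild-type littermate epidermis. The knockouts were Sox4cKO, Sox11cKO and Sox4/11 dcKO, in which floxed Sox4, Sox11 or both were removed by Cre under the keratin 14 promoter (Krt14-Cre), active in basal keratinocytes, so that cells in which Cre was not active kept the genes. There were 2 arrays per genotype, which the labels call biological replicates, with the knockout in Cy5 on replicate 1 and in Cy3 on replicate 2. Founders of the floxed lines also lacked Sox12, and whether the embryos carried that allele is not given in the sources used here.

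The cornified envelope is the protein shell that replaces the plasma membrane of keratinocytes as they turn into the dead outer layer of the skin. Its precursors, among them loricrin, involucrin, the small proline-rich proteins (Sprr) and the late cornified envelope proteins, are crosslinked by transglutaminases (Tgm). Genes of the late cornified envelope group are switched on late in terminal differentiation. In human skin the LCE3 group is known for its induction after barrier injury and in psoriatic plaques, and LCE3 proteins have been described as antimicrobial. The Lce1 genes belong to the skin-expressed set of normal epidermis, and Lce6a stands alone in a group of its own.

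The start of each gene in RefSeq (GRCm38.p6) gives the 100 bases just upstream that are shown here, because each of 3 short stretches recurs in 5 of the 6 Lce3 genes and is absent from Lce6a. They lie at chr3:92926231-92926330 (Lce3a, minus strand), chr3:92932879-92932978 (Lce3b, plus), chr3:92944386-92944485 (Lce3c, plus), chr3:92957290-92957389 (Lce3d, plus), chr3:92966961-92967060 (Lce3e, plus), chr3:92992117-92992216 (Lce3f, plus) and chr3:92621661-92621760 (Lce6a, minus). Capitals mark GGATAAAA and CATGCTTG, picked by eye from these sequences.
Lce3a: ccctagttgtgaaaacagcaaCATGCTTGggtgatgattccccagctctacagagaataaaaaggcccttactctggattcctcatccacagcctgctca
Lce3b: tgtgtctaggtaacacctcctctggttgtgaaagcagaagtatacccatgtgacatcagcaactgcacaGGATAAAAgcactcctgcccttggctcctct
Lce3c: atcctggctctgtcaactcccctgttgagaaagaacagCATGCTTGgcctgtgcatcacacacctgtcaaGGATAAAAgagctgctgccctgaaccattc
Lce3d: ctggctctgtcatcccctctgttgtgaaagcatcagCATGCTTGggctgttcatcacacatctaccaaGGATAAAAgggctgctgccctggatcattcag
Lce3e: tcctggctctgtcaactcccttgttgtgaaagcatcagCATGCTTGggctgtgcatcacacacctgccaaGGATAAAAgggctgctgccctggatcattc
Lce3f: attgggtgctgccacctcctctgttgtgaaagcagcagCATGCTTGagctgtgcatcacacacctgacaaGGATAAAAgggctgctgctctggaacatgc
Lce6a: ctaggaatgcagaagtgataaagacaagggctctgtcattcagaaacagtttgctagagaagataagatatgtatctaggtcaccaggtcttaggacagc

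GGATAAAA began 30 to 32 bases before the start in Lce3b to Lce3f. Over 250 upstream bases, searched on both strands, it occurred in 5 of the 7 genes and in 0.892% of all 32851 windows of that length. CATGCTTG occurred in Lce3a and in Lce3c to Lce3f, and in 0.801% of all windows. TTGTGAAA occurred in Lce3a, Lce3b, Lce3d, Lce3e and Lce3f, and in 1.03% of all windows. None of these 3 stretches occurred in the 13 Lce1 windows that could be searched. All 3 were taken because they recur in the Lce3 sequences, so these shares are a description and not a test. AACAAAG and AACAAT, words recognised by Sox proteins in general, occurred in Lce6a alone (5.03% of all windows) and in Lce3b alone (9.42%), and TGANTCA, the AP-1 word, in no member (6.75% of all windows). Aligned over the 250 bases, the windows of Lce3c, Lce3d, Lce3e and Lce3f were identical at 66.0 to 84.8% of positions in pairs, with the highest value for Lce3d and Lce3e. Lce3a or Lce3b paired with another Lce3 gene gave 57.6 to 60.8%, and Lce6a paired with an Lce3 gene 50.8 to 54.8%, against a median of 53.2% for members paired with Lce1 genes.

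In each channel 38.9 to 43.6% of spots, controls left out, exceeded background clearly, and saturation did not occur. The number of arrays limits the precision of the values below, as does signal near background on Sox11cKO replicate 2. The dimmer probe of the targeted Sox4 gene (A_55_P2131899) was well above background in the wild type and not in the knockout, and lay below the wild type by a factor of at least 3.05 in Sox4cKO (fitted value −1.96, adjusted p = 0.0289) and of at least 3.0 in dcKO (−1.58, adjusted p = 0.00228). The call in Sox4cKO was lost in 8 of the 16 alternatives, in 6 of them through the adjusted p (0.0734 to 0.520, among them leaving out either array of Sox4cKO or of Sox11cKO), and that in dcKO in 4. The brighter Sox4 probe (A_55_P2121613) gave −0.42 (adjusted p = 0.804) and −0.82 (adjusted p = 0.0777). Neither Sox11 probe was well above background in any knockout channel of Sox11cKO or dcKO, and in the wild type only A_55_P2094721 was, on 1 array of each, so the arrays could not check the Sox11 genotype. Both channels of Sox4cKO replicate 2 and of Sox11cKO replicate 2 showed Xist clearly above background, and those of the other 4 arrays the Y-linked Ddx3y, so replicate number and embryo sex moved together in the single knockouts, and their parts were not tested.

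The wild-type samples differed from each other in all 7 genes before any knockout was considered. The level of a probe is given here as log2 of its normalized signal in one channel, and levels are compared only between arrays and never between probes. For each of the 7 genes the wild-type level was highest on the array of Sox4cKO replicate 1 and lowest on that of Sox11cKO replicate 2, and the wild type of Sox11cKO replicate 1 was next to lowest. In the wild type of replicate 1, always in Cy3 and always well above background, the 7 genes were 2.33-fold to 12.2-fold higher on the Sox4cKO array than on the Sox11cKO array, and 1.86-fold to 6.70-fold higher on the dcKO array than on the Sox11cKO array. The Sox4cKO and dcKO arrays lay closer together, at 1.16-fold to 2.23-fold in replicate 1 and 1.06-fold to 1.51-fold in replicate 2. The groups named here are all wild type, with 1 sample each, so these folds are a description without a test.

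Lce3c, whose levels in the wild type ran from 11.78 (Sox4cKO replicate 1) over 10.75 (dcKO replicate 1), 10.40 (Sox4cKO replicate 2), 10.09 (dcKO replicate 2) and 9.02 (Sox11cKO replicate 1) to 4.60 (Sox11cKO replicate 2), showed the widest range, 7.18 log2 units. The lowest value was not well above background and is only a bound. Lce3d ran from 11.91 down to 5.15 and Lce3b from 11.27 down to 5.01 in the same order of samples, and their lowest values too were not well above background. Lce3f was well above background on every array and ran from 11.57 to 8.67, a 7.47-fold range, and Lce6a, also well above background on every array, from 9.11 to 5.33, a 13.7-fold range. Lce3a and Lce3e spanned 3.82 and 3.72 log2 units, with the lower end not well above background. The ranges of the 7 probes were wider than those of 99.0 to 99.9% of 26099 compared probes, whose median range was 0.52 log2 units. All these ranges span both dyes, since the wild type was in Cy3 on replicate 1 and in Cy5 on replicate 2. Within 1 dye they were narrower, at 1.22 (Cy3) and 2.51 (Cy5) log2 units for Lce3f against 2.90 over both. Lce6a gave 3.08 and 2.08 against 3.78, and Lce3c 2.75 and 5.80 against 7.18. In raw signal, the wild-type spot of Lce3d read 2568 in Cy3 on Sox4cKO replicate 1 and 65 in Cy5 on Sox11cKO replicate 2, where its local background read 48.

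**Figure D1:**
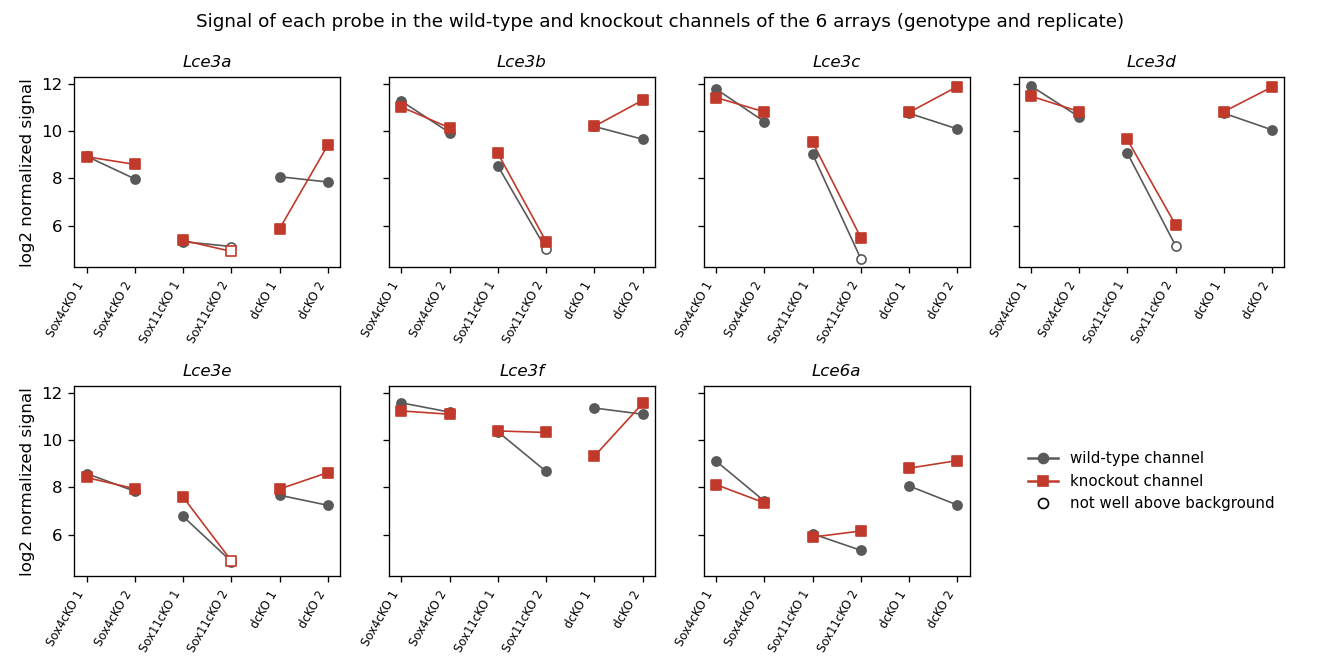
Log2 normalized signal (y axis) of the 7 probes in the wild-type (grey circles) and knockout (red squares) channels of each array (x axis, genotype and replicate); open symbols were not well above background. In every panel the wild-type level is highest on Sox4cKO replicate 1 and lowest on Sox11cKO replicate 2, and in Lce3b to Lce3e both channels fall from Sox11cKO replicate 1 to Sox11cKO replicate 2.

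Across the wild-type samples the Lce1 genes had their highest and lowest levels on arrays of the same genotypes as the members. Other genes of the region did so in part. The order in between differed. All 7 members were higher on Sox4cKO replicate 2 than on dcKO replicate 2, whereas the summed Lce1 signal was lower on Sox4cKO replicate 2. All 14 Lce1 genes were highest on Sox4cKO replicate 1 and lowest on a Sox11cKO array, as were 6 of 10 other precursors and region genes, 2 of 6 fused S100 genes and 1 of 14 Sprr genes. The summed wild-type signal of 14 Lce1 genes was 295882 and 28600 on the Sox4cKO arrays (replicates 1 and 2), 65969 and 35206 on the dcKO arrays, and 805 and 474 on the Sox11cKO arrays. That of 6 general keratinocyte markers (Krt5, Krt14, Krt15, Trp63, Krt1, Krt10) varied less, between 166300 (Sox11cKO replicate 2) and 262486 (Sox4cKO replicate 2). Prr9, a proline-rich gene of the region, ran the other way, at 8.96 on Sox4cKO replicate 1 and 10.77 and 10.63 on the Sox11cKO arrays. So did periderm markers, from the outermost layer of embryonic skin that is later shed. The wild-type level of 5 of 7 was highest on a Sox11cKO array, and their summed wild-type signal was 19181 and 18832 on the Sox11cKO arrays against 12185 to 14910 on the other 4. Krt4, a periderm keratin, read 9.77 and 10.76 there and 6.62 to 7.58 elsewhere. Dermal fibroblast markers had their highest summed wild-type signal on Sox4cKO replicate 1, 22707 against 6735 to 13450 on the other arrays. Skeletal muscle markers did too, at 1243 against 210 to 381. The labels give all samples the same age, and the part of these markers in the members' levels was not tested. In such bulk samples, fewer cells of a type and less RNA per cell cannot be told apart.

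In dcKO the 7 genes did not move as a block, and the 2 arrays disagreed on most of them. Lce6a rose, by 1.32 on the log2 scale (SE 0.13, SD of the 2 arrays 0.80, n = 2). Lce3b, Lce3c, Lce3d and Lce3e were near 0 on replicate 1 and between 1.39 and 1.82 on replicate 2. Lce3a and Lce3f were about 2 log2 units lower on replicate 1 and higher on replicate 2. None of the 7 was called (the study's thresholds, which are a log2 change beyond 1.5 in size together with an adjusted p under 0.05), where 0.207% of 55681 probes were, and 1 of the 7, Lce6a, passed the adjusted p alone, where 0.521% of all probes passed as higher. Before adjustment, 5 of the 7 were higher with a p under 0.05, against 4.96% of all probes, and Lce3f was lower, against 4.93%. The median of the 7 fitted values was 0.83, against 0.00 over all probes, and 5 of the 7 were higher on both arrays, against 24.8% of all probes. Of these, Lce3b, Lce3c and Lce3d were only 0.01, 0.04 and 0.07 above the wild type on replicate 1.

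Lce6a was at 0.75 on replicate 1 and at 1.88 on replicate 2 (log2 knockout over wild type), both above 0. Its spot read 551.5 in the knockout against 236 in the wild type on replicate 1, and 461 against 219 on replicate 2. The fitted 95% interval ran from 1.03 to 1.61 (adjusted p = 0.00278). This interval is narrower than the gap between both arrays because the model holds a dye coefficient, the same for every genotype, which takes up a difference between replicates 1 and 2. For Lce6a replicate 2 exceeded replicate 1 by 0.92 in Sox4cKO, 0.95 in Sox11cKO and 1.13 in dcKO, almost the same each time. Without that coefficient the fold change stayed at 1.32 and the adjusted p was 0.177, and with the scanner software's own log ratios it was 1.5 with an adjusted p of 0.27, while in the 14 other alternatives the adjusted p was under 0.05.

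Lce3c gave 0.04 and 1.79 on replicates 1 and 2, Lce3d 0.07 and 1.82, Lce3b 0.01 and 1.65, and Lce3e 0.27 and 1.39. All 4 genes were thus within 0.27 log2 units of the wild type in one dcKO sample and at least 1.39 above it in the other. Their fitted log2 fold changes were 0.92 (Lce3c, 95% interval 0.43 to 1.40, adjusted p = 0.136), 0.94 (Lce3d, 0.44 to 1.45, adjusted p = 0.140), 0.83 (Lce3b, 0.24 to 1.42, adjusted p = 0.311) and 0.83 (Lce3e, 0.23 to 1.42, adjusted p = 0.320). None passed the adjusted p. The dye coefficient took up part of the gap between both arrays here too, although that gap differed between genotypes. For Lce3c replicate 2 exceeded replicate 1 by 0.77 in Sox4cKO, 0.38 in Sox11cKO and 1.75 in dcKO. Without the coefficient the limma adjusted p was 0.659 for Lce3c and 0.655 for Lce3b. The knockout and wild-type spots of Lce3c read 2229 and 1494 on replicate 1 and 3169 and 1511 on replicate 2, and those of Lce3e 305.5 and 184.5, and 328 and 222. With replicate 1 left out, and the lone dcKO array assumed to vary like the other genotypes, Lce3b (1.59, adjusted p = 0.0137), Lce3c (1.51, 0.0137), Lce3d (1.58, 0.00910) and Lce3e (1.52, 0.0443) were called higher.

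Lce3a gave −2.20 on replicate 1 and 1.57 on replicate 2, opposite in sign, and a fitted value of −0.31 (95% interval −1.51 to 0.88, adjusted p = 0.904). Its knockout spot read 89 against a wild type of 248 on replicate 1, and 567 against 327.5 on replicate 2. Lce3f gave −2.03 and 0.46, with a fitted value of −0.79 (95% interval −1.47 to −0.11, unadjusted p = 0.0283, adjusted p = 0.433). Its spots read 801 in the knockout and 2253.5 in the wild type on replicate 1, and 2508.5 and 3007 on replicate 2. The spots around these probes on replicate 1, within 3 rows and columns, had a median of 0.11 (46 spots around Lce3a) and 0.02 (42 spots around Lce3f). Without replicate 2, which leaves 1 dcKO array, the fitted value was −2.10 for Lce3a and −1.57 for Lce3f. Without replicate 1 that of Lce3a was 1.47, again from 1 dcKO array. The sign of Lce3a in dcKO thus depended on which array was kept.

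**Figure D2:**
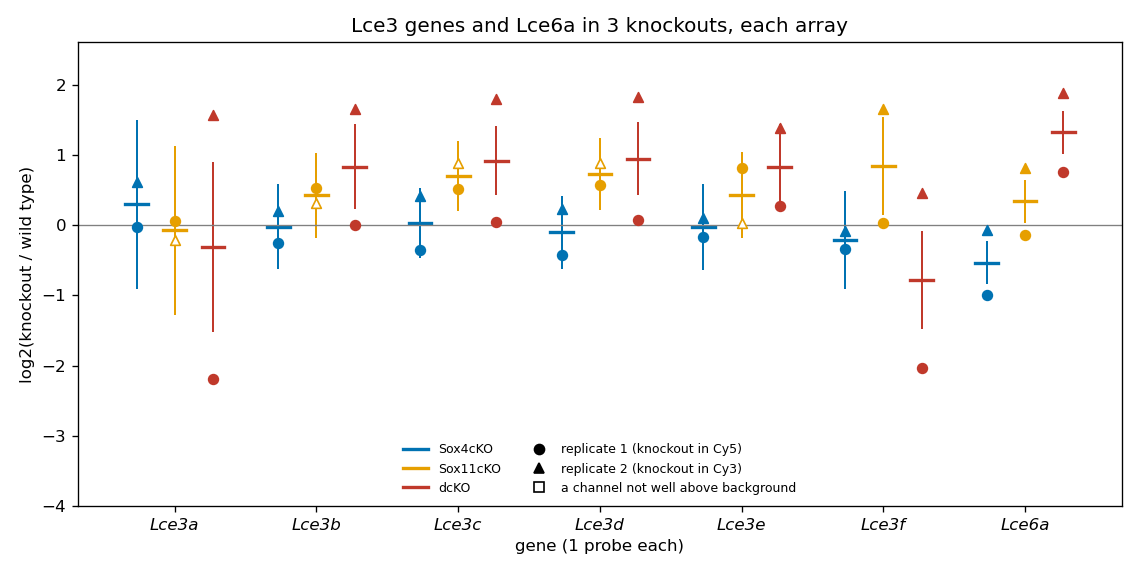
Log2 knockout over wild type (y axis) of each gene (x axis) on each array, with circles for replicate 1, triangles for replicate 2, horizontal bars for the fitted value and vertical lines for its 95% interval; open symbols mark arrays on which a channel was not well above background. The dcKO triangles lie between 0.46 and 1.88 in all 7 genes, while the dcKO circles run from −2.20 (Lce3a) to 0.75 (Lce6a).

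All 7 genes were higher on dcKO replicate 2 than on dcKO replicate 1, by 1.12 (Lce3e) to 3.76 (Lce3a), with a median of 1.75. Over all probes the median of that difference was 0.00, and 0.390% of probes exceeded the smallest value among the 7. Among 19556 probes well above background in every dcKO channel the share was 0.435%. In Sox4cKO too, replicate 2 was higher for all 7, by 0.25 to 0.92, and in Sox11cKO for 4 of 7 (−0.79 to 1.62). Replicate number coincided with the dye orientation, and which of them the difference follows cannot be told apart. Red blood cell transcripts moved the same way in dcKO, with a median of −0.45 on replicate 1 and 1.29 on replicate 2 over 5 genes, of which Hbb-y alone went the other way (0.36 and −0.75; summed knockout signal 59885 and 111168, wild type 74464 and 50466), and their part in the result was not tested. The 14 Lce1 genes were also all higher on replicate 2, by 0.015 (Lce1k) to 2.21 (Lce1m) with a median of 0.57, and Kprp, an envelope gene of the region, by 1.38. Of all 44 other genes of the region 32 were higher on replicate 2, with a median of 0.23.

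**Figure D3:**
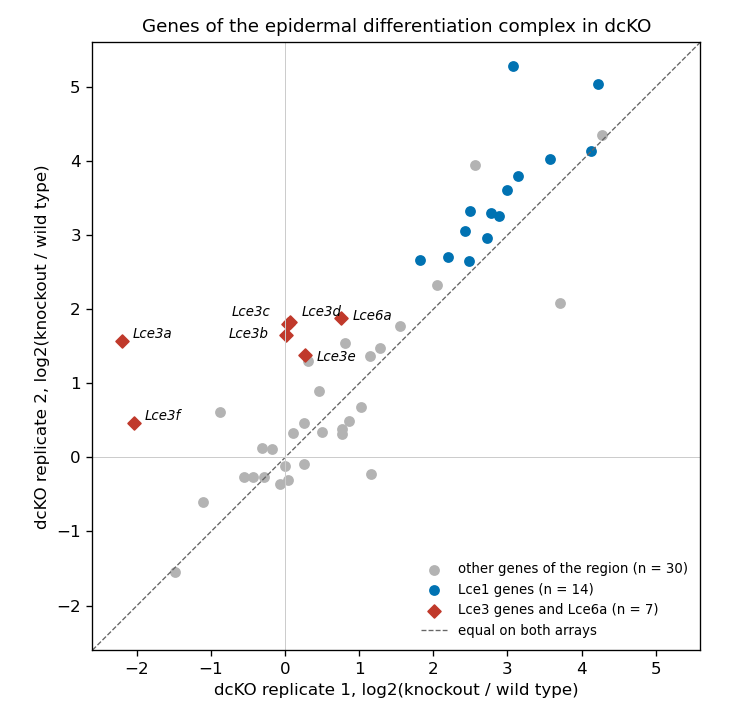
Log2 knockout over wild type on dcKO replicate 1 (x axis) against replicate 2 (y axis) for genes of the epidermal differentiation complex, with the 7 genes described here as red diamonds, Lce1 genes in blue and other genes of the region in grey; the dashed line marks equal values. All 7 red diamonds lie above the line, as do 32 of the 44 other genes, among them all 14 Lce1 genes, and Lce3a and Lce3f lie near −2 on replicate 1.

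In Sox11cKO the fitted values leaned upwards, and none passed the adjusted p. The median of the 7 was 0.43 against 0.00 over all probes, and 0 of 7 were called, as were 0% of 55680 probes. Before adjustment, 4 of the 7 were higher with a p under 0.05, against 3.76% of all probes, and 5 of 7 were higher on both arrays, against 22.7% of all probes. Lce3f gave 0.03 on replicate 1 and 1.65 on replicate 2 (fitted 0.84, adjusted p = 0.701), with spots of 981 in the knockout and 575.5 in the wild type on replicate 2. Lce3d gave 0.58 and 0.88 (fitted 0.73, adjusted p = 0.695), and Lce3c 0.51 and 0.89 (fitted 0.70, adjusted p = 0.695). On replicate 2, however, Lce3a and Lce3e were not well above background in either channel and Lce3b, Lce3c and Lce3d not in the wild type, so those values rest on 1 measured array. Lce3b gave 0.53 and 0.32, Lce3e 0.82 and 0.03, Lce3a 0.05 and −0.21, and Lce6a −0.14 and 0.82. The SD of these pairs was larger than the size of the fitted value in Lce3a, Lce3e, Lce3f and Lce6a. Of 10 other precursors and region genes, 7 also had fitted values above 0 in Sox11cKO and 3 below, with a median of 0.14 and none that passed. Ivl (involucrin) gave 0.33 and 2.30 on the arrays, and Crct1, a cysteine-rich gene, 0.20 and 1.91. Of the 14 Lce1 genes, 10 had fitted values below 0, with a median of −0.23. Periderm markers were lower on the same arrays, with a median of −1.44 on replicate 1 and −0.58 on replicate 2 and 6 of 7 fitted values below 0, none of which passed (summed signal 11896 and 15541 in the knockout, 19181 and 18832 in the wild type). Dermal fibroblast markers gave medians of 1.11 and −0.67. The part of both in the values of the Lce3 genes and Lce6a was not tested.

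In Sox4cKO the 7 genes stayed close to the wild type. The median was −0.03 (all probes 0.00), 0 of 7 were called, where 0.00539% of 55681 probes were, and 1 of 7 was lower with an unadjusted p under 0.05, against 3.39% of all probes. Lce6a was the exception, at −1.0 on replicate 1 and −0.07 on replicate 2 (fitted −0.54, 95% interval −0.83 to −0.24, unadjusted p = 0.00260, adjusted p = 0.740). Lce3f gave −0.34 and −0.09. These were the 2 of 7 genes lower on both arrays, against 22.9% of all probes. Lce3b (−0.25 and 0.20), Lce3c (−0.36 and 0.41), Lce3d (−0.43 and 0.22) and Lce3e (−0.17 and 0.11) changed sign between the arrays, with fitted values from −0.10 to 0.03, and Lce3a gave −0.02 and 0.61. On replicate 1 all 7 were below 0, and on replicate 2, 5 of 7 were above it. Dermal fibroblast markers split in the same array order (median of 8 genes −3.00 and 0.87), as did the Lce1 genes (−0.70 and 0.57), and their part in the result was not tested.

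Genotypes were compared with each other by contrasts within the fit. Between dcKO and Sox4cKO 1 of the 7 was called, against 0.131% of all probes: Lce6a, higher in dcKO by 1.85 (95% interval 1.44 to 2.27, adjusted p = 0.00581). On the arrays Lce6a was at −1.0 and −0.07 in Sox4cKO and at 0.75 and 1.88 in dcKO. The call was lost without the dye coefficient (1.85, adjusted p = 0.554), with the scanner software's log ratios (2.09, adjusted p = 0.513), without Sox4cKO replicate 1 (1.91, adjusted p = 0.0771) and without Sox4cKO replicate 2 (1.79, adjusted p = 0.0741). With 1 dcKO array left, the contrast gave 1.68 for Lce3d without dcKO replicate 1 and −2.40 for Lce3a without dcKO replicate 2. Between dcKO and Sox11cKO none of the 7 was called, against 0.136% of all probes, with Lce6a at 0.98 (adjusted p = 0.145) and Lce3f at −1.63 (adjusted p = 0.456). Without dcKO replicate 2, and so with 1 dcKO array, Lce3a gave −2.02 and Lce3f −2.41 in that contrast. Set against the sum of the values in Sox4cKO and Sox11cKO, the value in dcKO was called as different for none, against 0.0862% of all probes, and gave 1.51 for Lce6a (95% interval 1.01 to 2.02, adjusted p = 0.0920). That departure of Lce6a was called with ComBat in place of the dye coefficient (1.51, adjusted p = 0.0152). The departure of Lce3a was −2.32 without dcKO replicate 2, from 1 dcKO array.

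The Lce3 probes fell into a close set and 2 others. Over the 6 arrays, the log2 values of Lce3c and Lce3d differed by a root mean square of 0.09, and those of any pair among Lce3b, Lce3c, Lce3d and Lce3e by at most 0.44. Lce3a and Lce3f differed from those 4 and from each other by 0.94 to 1.25. Lce6a lay 0.48 to 0.67 from Lce3b to Lce3e. The Lce3 genes form a named family. Whether a probe also binds the transcript of a neighbouring Lce3 gene was not tested, since probe sequences were not used here. Lce3d and Lce3e, which were most alike upstream, were not the pair most alike in these values.

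The pattern of Lce3f, picked because its probe had the highest mean signal, which does not rank the genes, was set against 11159 probes well above background in at least 1 channel on each array. The closest genes were Slc25a37, a mitochondrial iron importer of erythroid cells (root mean square difference 0.49), Spink8, a serine protease inhibitor (0.57), Psors1c2, a gene of the psoriasis susceptibility region (0.58), Clic5, a chloride intracellular channel protein (0.60), and Xpnpep2, an aminopeptidase (0.61), where the median probe lay at 1.11. Slc25a37 gave −1.84 and −0.56 on the dcKO arrays and Psors1c2 −1.35 and 0.38, beside −2.03 and 0.46 for Lce3f. The 5 genes were selected for closeness on these same arrays, so their likeness is a description only.

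The Lce1 genes, which neighbour the members on the chromosome, had higher fitted values in dcKO than any member. In gene order Lce6a comes first, followed by most Lce1 genes, then Lce3a to Lce3f, Crct1 and Lce1m. Of the 14 Lce1 genes, 14 passed as higher, with a median of 3.06 on the log2 scale against 0.83 for the 7 described here; the lists share the same arrays, and this difference was not tested. The highest were Lce1b (4.63), Lce1m (4.18), Lce1k (4.13) and Lce1h (3.80). Of the 2 that flank the Lce3 genes, Lce1l, before Lce3a, gave 3.15 and 3.79 on the dcKO arrays, and Lce1m, after Lce3f, 3.07 and 5.28. Crct1, a cysteine-rich gene between Lce3f and Lce1m, gave 1.29 and 1.47 (adjusted p = 0.0353). The 6 Lce3 genes lay between these with fitted values from −0.79 to 0.94.

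**Figure D4:**
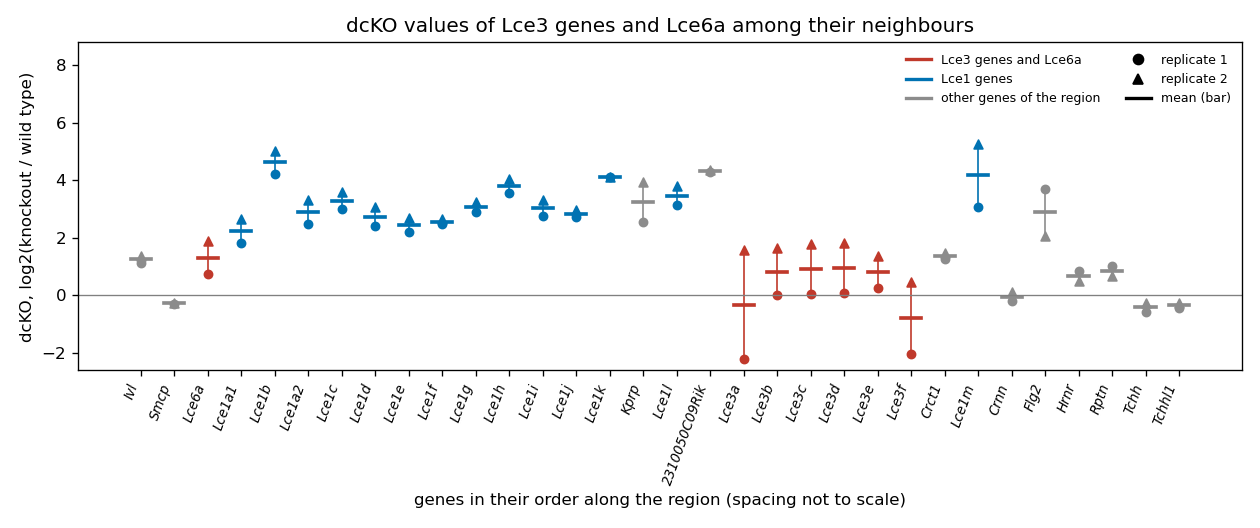
Log2 knockout over wild type in dcKO (y axis) for genes in their chromosomal order (x axis, order only), with circles for replicate 1, triangles for replicate 2 and bars for their mean; red marks the Lce3 genes and Lce6a, blue the Lce1 genes. The Lce3 bars run from −0.79 to 0.94 between Lce1l (3.47) and Lce1m (4.18), and the spread between both arrays is widest for Lce3a and Lce3f.

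Other groups of the envelope were mixed in dcKO. Of 14 Sprr genes with a probe, 2 passed as higher (Sprr2d 1.66 and Sprr2h 1.18) and none as lower. Among 6 fused S100 genes, 2 passed as higher, Flg2 (2.90) and Rptn (0.85). Among 10 other precursors and genes of the region, 4 passed as higher (2310050C09Rik 4.31, Kprp 3.25, Lelp1 2.19, Crct1 1.38) and Prr9 as lower (−1.52). None of 4 transglutaminases passed, with Tgm3, an envelope crosslinking enzyme, at 0.62 and Tgm5 at 0.23. Of 13 genes known to respond to epidermal injury, the setting in which LCE3 genes are known in humans, Stfa2, a cysteine protease inhibitor (1.55, adjusted p = 0.0480), and Krt16 (1.30, adjusted p = 0.0481) passed as higher and Krt17 (−1.37, adjusted p = 0.00510) as lower. In both single knockouts none of these lists held a gene that passed. Periderm markers were lower on both dcKO arrays in 7 of 7 genes, of which 3 passed (Krt4, Krt19, Krt17). Their summed signal was 8247 and 8190 in the knockout and 12864 and 13687 in the wild type, and their median value was −0.97. Dermal fibroblast markers were lower on both dcKO arrays in 7 of 8 genes, with a median fitted value of −1.73 (−1.71 and −1.53 on the arrays) and none that passed, and their summed signal was 9783 and 8174 in the knockout and 13450 and 9152 in the wild type. The part of both marker groups in the members' values was not tested.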

How the data were processed

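RNA of knockout and wild-type epidermis was hybridised together to Agilent SurePrint G3 mouse arrays. The authors extracted the scans with Agilent Feature Extraction 11.0.1.1, and the deposited scanner files give each spot's intensity as median brightness of spot and local background in Cy5 and Cy3, not normalized. The deposited log10 ratios of red over green in the same files had been background-subtracted and dye-normalized by that software. A table by the authors gives log2 values of knockout over wild type, made per the methods with normexp (offset 16) and loess, and differed by at most 0.00483 from the member values computed here.

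In R 4.3.3 with limma 3.58.1, intensities were corrected with normexp (offset 16, all spots) and normalized by loess within each array. Spots with an outlier mark were left out, spots of a probe were averaged (55681 probes), and all 6 arrays were fitted with 1 coefficient per genotype and a dye coefficient, which is also a replicate block (degrees of freedom 6.63 prior, 2 residual). This dye coefficient stood in for the ComBat step that the methods name. P-values were two-sided and Benjamini-Hochberg adjusted over all probes, all from limma. The thresholds for a call were those of the study, 0.05 for the adjusted p and 1.5 for the size of the log2 change. P-values measure the spread between samples that the labels call biological replicates, after the replicate difference shared by the genotypes is taken out. That spread was moderated by limma with the prior from all probes. All arrays lay on 1 slide read in 1 scan, so no slide effect could be fitted. The model code was tested on simulated data.

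Same-numbered arrays deviated together from their genotype means across probes (r = 0.26, 0.31 and 0.33 for the 3 pairs of genotypes). The model treated arrays of the same number as a block. Replicate number coincided with the dye orientation, so these correlations cannot show whether same-numbered samples were paired. Channel levels were taken after loess and Aquantile normalization. Probes were named through RefSeq accessions (GRCm38.p6), which named 28331 probes, and a gene with several probes is represented by the brightest in the gene lists. Upstream windows came from RefSeq tables and all 7 members matched. They were aligned globally in pairs with Biopython 1.88.

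1 marker of the red blood cell list is not reported here. The 7 members, the gene lists and the tests were chosen with earlier results of these data known. The text names all members, Sox4, Sox11, the 5 genes closest to the brightest member, and from each list up to 4 passing genes with the largest change, or up to 2 where none passed. Cell type markers were a list of their own. Outside that rule, Lce1l and, in dcKO, Crct1 were named as neighbours of the Lce3 genes, and Hbb-y, Krt4 and the sex-linked Xist and Ddx3y after their values were seen. Alternatives were no dye coefficient, ComBat written out from its equations and run on knockout over wild type with the dye orientation as the batch, the series table, the software's log ratio, an offset of 50, no background subtraction, median centring, a filter on dim probes (well above background in at least 2 of 12 channels), outlier spots kept, the genotype's own arrays, and each array left out in turn.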

Additional observations from a re-analysis of the deposited data

Results flagged for a closer look

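The effect on Lce6a differed between genotypes by a test of the difference itself. The fitted log2 value in dcKO exceeded that in Sox4cKO by 1.85 (limma, adjusted p = 0.00581), with −1.0 and −0.07 on the Sox4cKO arrays and 0.75 and 1.88 on the dcKO arrays. Over the alternatives the difference lay between 1.63 and 2.09, and its adjusted p between 0.000190 and 0.554. It was under 0.05 in 11 of 15.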

How the results depend on the processing

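The 7 genes held 0 called probes in Sox4cKO and in Sox11cKO under each alternative. In dcKO the count of 0 became 4 without dcKO replicate 1 and 2 without dcKO replicate 2, so that leaving out 1 array gave 0 to 4. The count of 1 between dcKO and Sox4cKO became 0 with the Feature Extraction log ratio and 0 to 2 with 1 array left out, with 0 without either Sox4cKO array and 2 without either dcKO array. Between dcKO and Sox11cKO it was 0 to 2 with 1 array left out, with 2 without dcKO replicate 2. The departure from the sum gave 1 with ComBat, and 0 to 1 with 1 array left out, with 1 without dcKO replicate 2. A fit without an array leaves 1 array of that genotype, so the genotype's own spread does not enter those calls. The causes were not tested.

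Without the dye coefficient (the replicate block), the count between dcKO and Sox4cKO fell from 1 to 0 members and from 73 to 46 probes. The departure from the sum went from 48 to 24 probes, and the adjusted p of Lce6a in dcKO rose to 0.177. The block changed no other count of members.

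Over all probes the Feature Extraction log ratio gave 0 calls in dcKO and in each contrast, against 115 in dcKO, 73 between dcKO and Sox4cKO, 76 between dcKO and Sox11cKO and 48 for the departure from the sum. Leaving out 1 array gave 121 to 167, 42 to 130, 42 to 152 and 25 to 93, in that order, and the filter on dim probes 31 for the departure from the sum. Sox4cKO had 3 calls, against 0 with the Feature Extraction log ratio, an offset of 50, no background subtraction or the dim filter, 5 with its own arrays, and 0 to 26 with 1 array left out. Sox11cKO had 0, against 1 with an offset of 50, no background subtraction or median centring, 2 with its own arrays, and 1 to 43 with 1 array left out.

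Signs turned only in values that had not passed the adjusted p. With the Feature Extraction log ratio Lce3a in Sox11cKO became 0.21, and in Sox4cKO Lce3b became 0.012, Lce3c −0.014, Lce3e 0.014 and the Sox11 probe A_52_P160955 0.0084. In Sox11cKO the Sox4 probe A_55_P2131899 became −0.015 and the Sox11 probe A_55_P2094721 −0.11, or −0.0011 without background subtraction. With median centring Lce3b became 0.16, Lce3d 0.092, Lce3e 0.11 and A_52_P160955 0.049 in Sox4cKO. With 1 array left out, Lce3a ran from −0.26 to 0.86 in Sox4cKO, from −1.31 to 1.15 in Sox11cKO and from −2.10 to 1.47 in dcKO. In Sox11cKO, Lce3b ran from −0.21 to 1.05, Lce3e from −0.32 to 1.17, A_55_P2094721 from −0.45 to 0.54, and the Sox4 probes A_55_P2121613 and A_55_P2131899 from −0.024 to 0.26 and from −0.091 to 0.25. In Sox4cKO, Lce3b ran from −0.15 to 0.11, Lce3c from −0.12 to 0.17, Lce3d from −0.29 to 0.082, Lce3e from −0.083 to 0.023, Lce3f from −1.12 to 0.68, A_52_P160955 from −0.011 to 0.0058 and A_55_P2094721 from −0.23 to 0.40. Signal near background limits the Sox11cKO replicate 2 values of Lce3a to Lce3e and both Sox11 probes.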
